A study of Homo sapiens with 6 samples.

Results

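The HOX genes of the 4 human clusters were examined in BT-549 cells, an established line of triple-negative breast cancer cells, after silencing of PBRM1. PBRM1 encodes BAF180, a bromodomain subunit of the PBAF form of the SWI/SNF chromatin remodelling complex. Members were all rows of the count table whose symbol is HOX followed by a cluster letter from A to D and a number, which gave 39 genes of 37887 rows and left out antisense transcripts. RNA-seq covered 2 groups of 3 libraries, named control_shRNA and shPBRM1. By the treatment labels and the design text, all 6 libraries came from BT-549 cells stably carrying a tetracycline-inducible PBRM1 shRNA, the control_shRNA libraries after 0.1% DMSO as vehicle and the shPBRM1 libraries after 500 ng/ml doxycycline (DOX). The titles name a control shRNA for the first group, and the sources used here do not settle which description holds. If only the shPBRM1 group received DOX, the drug itself and the loss of PBRM1 cannot be told apart, and if the controls carried another shRNA, neither can a difference between the lines. The duration of treatment for these cultures is not given in the sources used here.

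HOX genes encode homeodomain transcription factors that set positional identity along the body axis of the embryo. Within each cluster the genes lie in the order in which they are used from head to tail, and genes at matching places in the clusters are paralogues with the same number. Adult cells and cell lines commonly keep part of the HOX pattern of the tissue they came from. Trithorax-group proteins hold active HOX genes on and Polycomb-group proteins hold inactive ones off. The catalytic subunits of SWI/SNF belong to the trithorax side. HOX proteins bind DNA together with PBX and MEIS proteins, which are homeodomain cofactors of the TALE class, and retinoic acid is an upstream input to the anterior end of the clusters.

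Total counts ranged from 36429395 to 65096297 per library, so 3 counts, taken as the floor of detection, corresponded to between 0.0461 and 0.0824 CPM, the count scaled to the size of the library. PBRM1 itself was at 157, 157 and 161 CPM with control_shRNA and at 43.3, 40.9 and 41.7 CPM with shPBRM1, a log2 fold change of -1.91 (SE 0.027, adjusted p = 9.98e-23). The groups did not overlap. Of the mesenchymal markers, VIM was at 620 and 770 CPM in control_shRNA and shPBRM1 cells and CDH2 at 252 and 366 CPM, whereas FN1 was at 554 and 221 CPM and ZEB1 at 197 and 135 CPM. The estrogen receptor gene ESR1 had 2 counts in 1 library and 0 in the others, EPCAM had at most 8 counts and PGR at most 12, while ERBB2 was at 51.3 and 50.02 CPM and CDH1 at 5.002 and 1.51 CPM. Markers of other cells were low, with PTPRC of leukocytes at 0.797 and 0.132 CPM, a log2 fold change of -2.55 (adjusted p = 6.35e-06), and PECAM1 of endothelium at 0.215 and 0.0517 CPM. The part of these markers in the HOX results was not tested, and in bulk RNA fewer cells of a type and less RNA per cell cannot be told apart.

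HOX expression in BT-549 cells came almost entirely from the HOXB and HOXC clusters and from a few HOXA genes. Of the 39 members, 24 had enough counts to be tested, 7 were at trace level and 8 were silent, with no library above 3 counts. The HOXC cluster on chromosome 12 (9 genes, plus strand, chr12:53938765-54056030, GRCh38) had all 9 of its genes tested. The HOXB cluster on chromosome 17 (10 genes, minus strand, chr17:48528526-48729178) had 9 tested genes and the silent HOXB1. The HOXA cluster on chromosome 7 (11 genes, minus strand) had 6 tested genes, among them HOXA3, HOXA9, HOXA10, HOXA11 and HOXA13, with the stretch from HOXA4 to HOXA7 at trace level or silent. The HOXD cluster on chromosome 2 (9 genes, plus strand, chr2:176092891-176190907) had none.

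The silent members were HOXA6, HOXB1, HOXD1, HOXD3, HOXD4, HOXD10, HOXD11 and HOXD12. The 6 HOXD genes among them, which include patterning genes of limbs and trunk, had 0 counts in every library, which allows a level of up to between 0.0461 and 0.0824 CPM by library for counting error alone. Small counts were even more often than odd (62.4% to 63.7% of the values from 1 to 4), and if both mates of a read pair were counted, which was not tested, 3 counts would stand for fewer fragments and this limit would be higher. HOXA6 and HOXB1, a hindbrain gene, had at most 2 counts in a single library. The whole HOXD cluster held 41 counts over the 6 libraries, which came from HOXD8, HOXD9 and HOXD13. The genes that flank this cluster were expressed: ATP5MC3, a subunit of the mitochondrial ATP synthase, LNPK, an endoplasmic reticulum protein, and ATF2 and MTX2 were all tested, and only EVX2, the homeobox gene next to HOXD13, had 0 counts. The trace members were HOXA2, HOXA4, HOXA5, HOXA7, HOXD8, HOXD9 and HOXD13. Of these, HOXA2, a hindbrain patterning gene, had 7, 2 and 4 counts in the control_shRNA libraries and 28, 10 and 10 in the shPBRM1 libraries. Its raw counts did not overlap between groups but its CPM did. HOXA4 had 2, 4 and 2 counts and then 8, 7 and 14, and its CPM did not overlap. When no gene was filtered, HOXA2 had a log2 fold change of 1.57 (adjusted p = 0.0274) and HOXA4 of 1.56 (adjusted p = 0.124). Other trace genes stayed at or below 8 counts, except HOXA7 with 19 in shPBRM1 replicate 3.

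**Figure D1:**
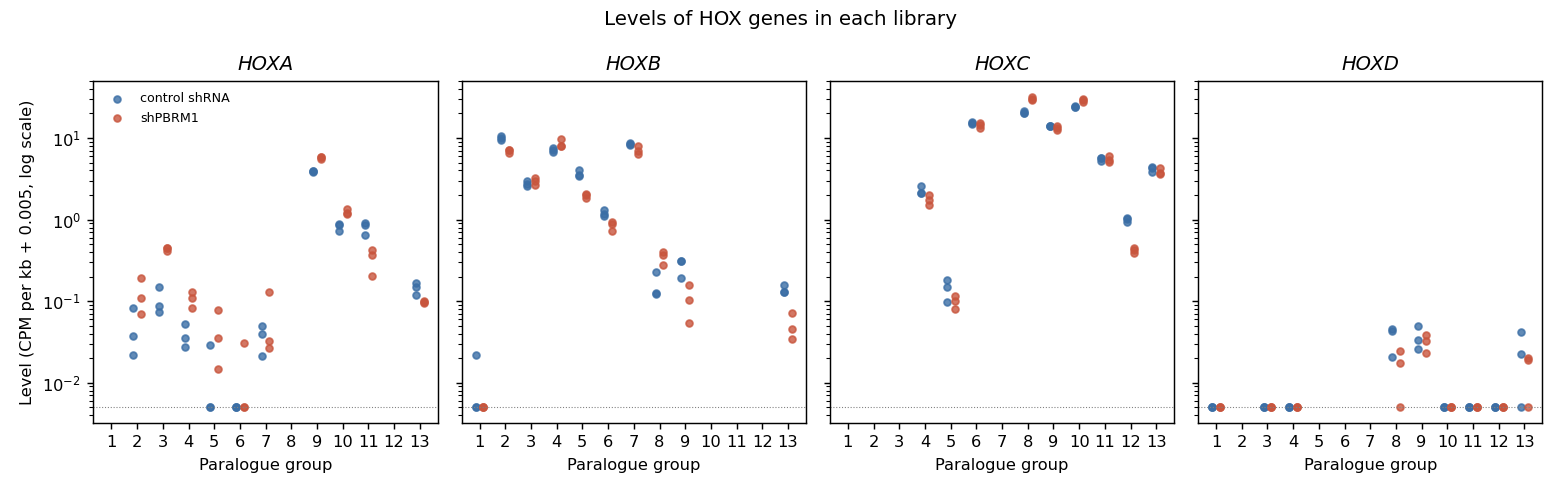
Level of 38 HOX genes in each library, by cluster and position, in CPM per kb of exon on a log axis after adding 0.005. Points are libraries of the control_shRNA and shPBRM1 groups, and the points of the 6 HOXD genes with 0 counts lie at the bottom of the axis. The silent genes HOXA6 and HOXB1 each have a single point above it.

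Levels can be compared between genes only per unit of length, and for this CPM was divided by the exon length of the gene in kb. HOXC10, which patterns the lumbar spinal cord, led in control_shRNA cells with 24.3 ± 0.256 CPM per kb (SD, n = 3). HOXC8, a gene of the thoracic skeleton, followed with 20.7 ± 0.767, HOXC6 with 15.3 ± 0.289 and HOXC9 with 13.97 ± 0.0473 CPM per kb. The ranges of these 4 genes over the libraries did not overlap one another. Next in the order were HOXB2 at 9.98, HOXB7 at 8.44, HOXB4 at 7.16 and HOXC11 at 5.59 CPM per kb. The ranges of HOXC13 (4.17 CPM per kb), HOXA9 (3.93) and HOXB5 (3.65) overlapped from each to the next, and these 3 genes were not separated. At the low end, the genes from HOXB8 at 0.153 down to HOXA3 at 0.0978 CPM per kb each overlapped the next in the order. In shPBRM1 cells HOXC8 (30.5 ± 1.51) and HOXC10 (29.1 ± 1.18 CPM per kb) overlapped at the top, and HOXA9 (5.75 CPM per kb) stood above HOXC11 (5.45) in the order with overlapping ranges.

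The clusters differed in their share of HOX expression. Of the summed HOX level in CPM per kb, HOXC held between 68.4% and 69.1% in the control_shRNA libraries and between 72.1% and 73.1% in the shPBRM1 libraries. HOXB held 26.3% to 26.7% and then 20.6% to 21.8%, and HOXA 4.52% to 4.89% and then 5.64% to 6.76%. HOXD held 0.0545% to 0.0758% and then 0.0326% to 0.0356%, from at most 10 counts in a library. The groups did not overlap in the share of any of the 4 clusters. Shares within a library are tied to one another, so they are 1 description and not 4 results.

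The comparison of shPBRM1 with control_shRNA cells asked which HOX genes changed with silencing of PBRM1. Counts were fitted over all 15450 genes with enough counts by edgeR's quasi-likelihood test, with the group only and no pairing by replicate number. P-values were adjusted over all these genes by the Benjamini-Hochberg method with a threshold of 0.05. Of the 24 tested HOX genes, 9 fell, 8 rose and 7 did not pass. The 17 called genes were 70.8% of those tested, against 64.7% of all genes tested (33.2% lower and 31.5% higher). The groups did not overlap in CPM for 18 of the 24 (75.0%), against 68.3% of all genes. The median log2 fold change was -0.10, against -0.0080 over all genes. A fold change over 2 with an adjusted p under 0.05 was found for 4 lower genes (HOXA11, HOXC12, HOXB9 and HOXB13) and 3 higher genes (among them HOXA3 and HOXB8), which is 29.2% of the tested members against 12.6% of all genes (9.68% lower and 2.87% higher). Several of these genes had few counts, and with a mean of at least 50 counts required, 2 lower and 1 higher remained over 2-fold. These counts of 24 genes are descriptions, and no test of the list was made.

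**Figure D2:**
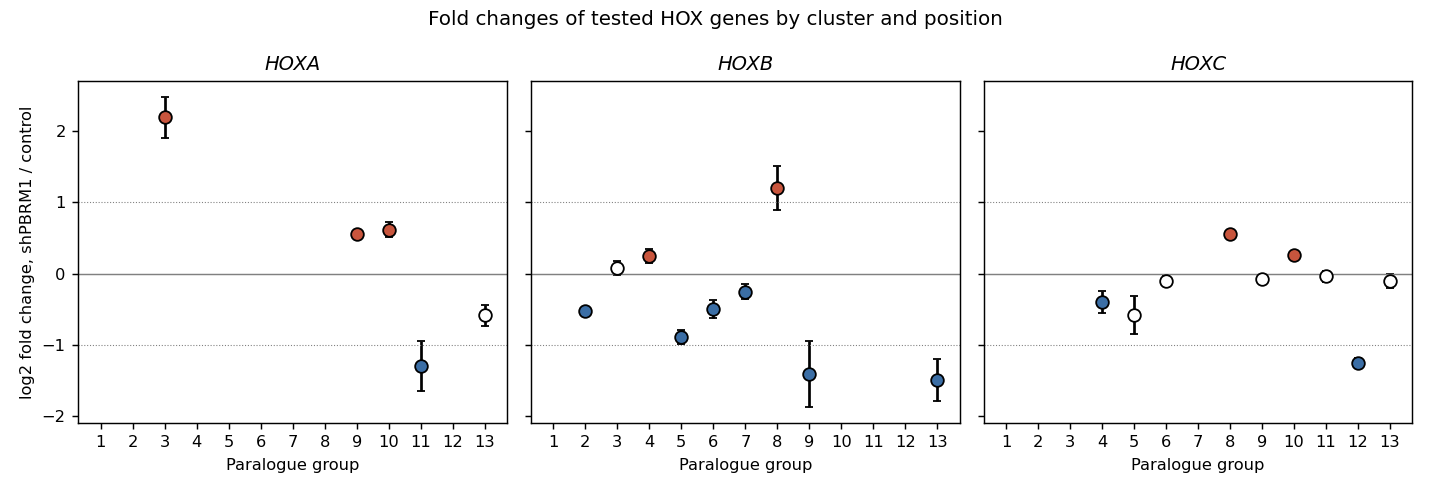
Log2 fold change of 23 tested HOX genes, shPBRM1 over control_shRNA, by cluster and position, with bars for the SE from the spread between libraries and dotted lines at a fold change of 2. Filled red points are 7 genes called higher, filled blue points the 9 called lower and open points the 7 that did not pass.

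Windows upstream of HOX start sites are shown for HOXA genes that moved in different directions, HOXA3, HOXA9 and HOXA10 upward and HOXA11 downward, and for a gene with 0 counts, HOXD11. Each is the 250 bases before the annotated start in RefSeq (GRCh38.p14), read 5′ to 3′ on the gene's strand, at chr7:27152584-27152833, chr7:27165538-27165787, chr7:27179862-27180111 and chr7:27185233-27185482 on the minus strand and chr2:176107030-176107279 on the plus strand.
HOXA3 promoter window: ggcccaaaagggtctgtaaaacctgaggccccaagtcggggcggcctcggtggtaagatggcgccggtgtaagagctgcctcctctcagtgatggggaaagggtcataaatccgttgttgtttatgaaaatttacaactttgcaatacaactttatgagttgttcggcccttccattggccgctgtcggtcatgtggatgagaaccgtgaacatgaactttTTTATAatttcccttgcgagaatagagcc
HOXA9 promoter window: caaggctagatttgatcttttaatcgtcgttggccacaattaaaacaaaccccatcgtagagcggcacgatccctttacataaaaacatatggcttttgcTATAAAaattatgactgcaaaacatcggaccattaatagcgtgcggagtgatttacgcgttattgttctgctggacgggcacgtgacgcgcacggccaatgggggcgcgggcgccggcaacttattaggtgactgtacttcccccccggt
HOXA10 promoter window: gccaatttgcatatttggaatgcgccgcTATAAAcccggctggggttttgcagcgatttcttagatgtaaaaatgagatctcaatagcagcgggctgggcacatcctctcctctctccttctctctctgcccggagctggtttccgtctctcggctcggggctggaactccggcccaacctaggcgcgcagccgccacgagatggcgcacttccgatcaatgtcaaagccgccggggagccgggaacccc
HOXA11 promoter window: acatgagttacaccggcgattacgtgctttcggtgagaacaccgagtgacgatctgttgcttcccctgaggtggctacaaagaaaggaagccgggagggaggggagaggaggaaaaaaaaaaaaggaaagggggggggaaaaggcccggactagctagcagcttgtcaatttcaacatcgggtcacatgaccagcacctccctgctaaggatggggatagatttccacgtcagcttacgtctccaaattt
HOXD11 promoter window: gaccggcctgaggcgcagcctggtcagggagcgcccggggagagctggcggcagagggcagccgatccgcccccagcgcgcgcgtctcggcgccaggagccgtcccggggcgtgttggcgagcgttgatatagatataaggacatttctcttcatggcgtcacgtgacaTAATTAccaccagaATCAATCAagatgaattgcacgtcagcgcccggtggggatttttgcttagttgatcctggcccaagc
Capitals mark matches on either strand to TATAAA, the TATA box core, TAATTA, a homeodomain core, or TGATTNAT, a PBX and HOX element. HOXA3 has 7 annotated starts listed and HOXA10 has 2, of which the most upstream was used. TATAAA was found as written 150 bases before the start in HOXA9 and 222 bases before it in HOXA10. In HOXA3 it lay 29 bases before the start on the opposite strand, and HOXA11 held no match. Of the 7 tested members with a window, only these 3 held TATAAA, and a link to the direction of change was not tested. Windows were listed for 20 of the 39 members, and of the 27 windows listed the most upstream of each gene was kept. TATAAA was in 4 of these 20 windows (20%), against 10.7% of 35116 windows of all genes. The windows of all genes kept every listed start, so the shares and medians given here compare unlike sets. TAATTA was in 2 of 20 (10%, against 4.35%), TGATTNAT in 2 (10%, against 2.48%) and AGGTCA, a retinoic acid receptor core site, in 0 (against 12.1%). The median number of CpG dinucleotides was 20.5 in HOX windows and 11 in all windows. HOXC4 and HOXC5 share 1 window, and no window was listed for the other HOXC genes or for any tested HOXB gene. A match is a description of the letters and shows no binding.

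Toward the anterior end of the HOXA cluster, HOXA3 rose. HOXA3, which patterns the pharyngeal arches and the thymus, had 23, 17 and 15 counts in the control_shRNA libraries and 115, 69 and 122 in the shPBRM1 libraries. All 3 shPBRM1 libraries were above all 3 control_shRNA libraries. The level rose from 0.421 ± 0.171 to 1.87 ± 0.0819 CPM (log2 fold change 2.19, SE 0.29, adjusted p = 1.33e-07). Tested against a fold of 2 itself, HOXA3 passed as well (adjusted p = 0.000343), and no other HOX gene did. Antisense transcripts overlap 15.4% of the exon bases of HOXA3, and same-strand genes share 9.2% of them. Whether counting used the strand is not given in the sources used here.

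At the posterior end of HOXA the neighbours parted. HOXA9, a regulator of blood progenitors, was at 11.8, 12.1 and 11.7 CPM in control_shRNA cells and at 17.8, 16.8 and 17.7 CPM in shPBRM1 cells. The groups were well apart, and HOXA9 rose by a log2 fold change of 0.55 (SE 0.030, adjusted p = 2.44e-07). HOXA10, which is needed in the uterine lining, rose from 3.01 ± 0.280 to 4.58 ± 0.398 CPM (log2 fold change 0.61, SE 0.11, adjusted p = 0.000187). Antisense transcripts overlap 13.9% of the exon bases of HOXA9 and 16.4% of those of HOXA10. HOXA9 also shares 15.9% of its exon bases with same-strand genes and HOXA10 9.9%, with AC004080.3 among them for both. HOXA11, a gene of uterus and forearm that lies next to HOXA10, had 78, 96 and 74 counts in control_shRNA and 58, 33 and 29 in shPBRM1 libraries. It fell from 1.84 ± 0.331 to 0.756 ± 0.268 CPM (log2 fold change -1.30, SE 0.35, adjusted p = 0.000131). The antisense gene HOXA11-AS overlaps 31.1% of the exon bases of HOXA11, and it had 10, 12 and 17 counts and then 8, 5 and 2 (log2 fold change -1.59, adjusted p = 0.0158), so reads of the pair cannot be told apart if the strand was not used. HOXA13 of the distal limb was at 0.711 and 0.472 CPM (log2 fold change -0.59, adjusted p = 0.106).

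HOXB had the most members that fell. HOXB2, a hindbrain gene, was at 24.5, 22.3 and 23.1 CPM in control_shRNA libraries and at 16.6, 16.8 and 15.2 CPM in shPBRM1 libraries. The groups did not overlap, and its log2 fold change was -0.53 (adjusted p = 2.35e-07). HOXB5 fell from 7.45 ± 0.646 to 4.003 ± 0.281 CPM (log2 fold change -0.89, adjusted p = 1.47e-07) and HOXB6 from 3.10 to 2.21 CPM (-0.50, adjusted p = 0.0059). HOXB6 shares 16.6% of its exon bases with a same-strand gene and 16.3% with antisense transcripts, so its counts are uncertain. HOXB7, a gene studied for its high level in breast tumours, was at 12.5, 13.1 and 13.1 CPM and then at 9.68, 12.4 and 10.6 CPM. Its log2 fold change was -0.26 (SE 0.11, adjusted p = 0.0117), and without shPBRM1 replicate 1 it was -0.18 (adjusted p = 0.0852). HOXB3 was at 20.7 and 21.9 CPM (log2 fold change 0.077, adjusted p = 0.359).

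HOXB9, a thoracic gene also active in the mammary gland, had 18, 38 and 40 counts in control_shRNA and 24, 10 and 8 in shPBRM1 libraries. It fell from 0.686 ± 0.176 to 0.261 ± 0.137 CPM (log2 fold change -1.41, SE 0.47, adjusted p = 0.00371). Replicate 1 of shPBRM1 at 0.400 CPM came close to replicate 1 of control_shRNA at 0.482 CPM, and the groups did not overlap. HOXB13, which is known from the prostate and the tail end of the spine, had 16, 26 and 22 counts and then 14, 4 and 9. It fell from 0.467 ± 0.0592 to 0.159 ± 0.0670 CPM (log2 fold change -1.50, SE 0.29, adjusted p = 0.00394). HOXB8 and HOXB4 moved the other way. HOXB8, a gene of myeloid progenitors, had 17, 12 and 12 counts and then 34, 32 and 47, and rose from 0.313 ± 0.123 to 0.709 ± 0.130 CPM (log2 fold change 1.20, SE 0.31, adjusted p = 0.00608). HOXB4, a regulator of blood stem cells, was at 25.2, 28.7 and 26.9 CPM and then at 30.3, 36.1 and 30.2 CPM, a log2 fold change of 0.25 (adjusted p = 0.00253), and shares 17.1% of its exon bases with same-strand genes. The counts of HOXB8, HOXB9 and HOXB13 were under 50 in every library.

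**Figure D3:**
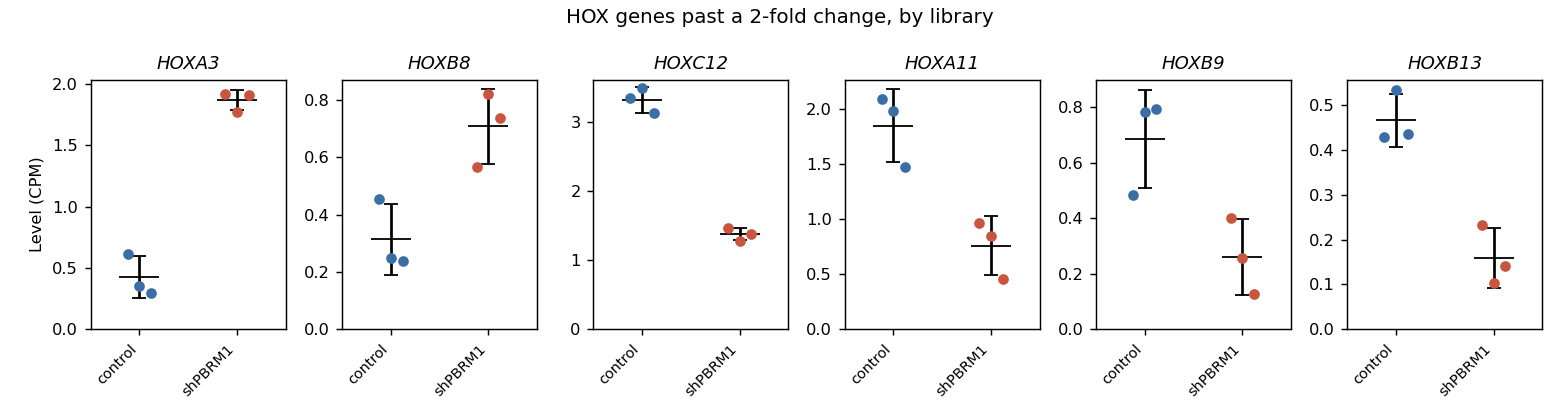
Normalized CPM per library of 6 HOX genes that passed the test with a fold change over 2, with points for libraries and mean ± SD for each group of 3. HOXA3 and HOXB8 lie higher in shPBRM1 cells and HOXA11, HOXC12, HOXB9 and HOXB13 lower, and the groups do not overlap for any of them.

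Of the 9 tested HOXC genes, 4 passed. HOXC8 was at 38.1, 38.5 and 40.8 CPM in control_shRNA cells and at 55.8, 60.9 and 56.3 CPM in shPBRM1 cells. HOXC8 rose by 0.56 on the log2 scale (adjusted p = 3.99e-10), and all shPBRM1 libraries were above all control_shRNA libraries. HOXC10 was at 57.2, 56.0 and 56.7 CPM and then at 65.0, 70.5 and 67.6 CPM, for a log2 fold change of 0.26 (adjusted p = 5.25e-06). HOXC12, a posterior gene, had 125, 170 and 158 counts and then 88, 50 and 88. It fell from 3.33 ± 0.183 to 1.38 ± 0.0906 CPM (log2 fold change -1.26, SE 0.070, adjusted p = 2.1e-07). HOXC4 fell from 6.17 to 4.72 CPM (log2 fold change -0.39, adjusted p = 0.00646), and without shPBRM1 replicate 1 its log2 fold change was -0.29 (adjusted p = 0.0507). HOXC4 shares 17.8% of its exon bases with same-strand genes.

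The other 5 HOXC genes did not pass. HOXC6 was at 53.2, 55.2 and 54.0 CPM and then at 46.6, 53.8 and 51.2 CPM, with overlap of the groups and a log2 fold change of -0.10 (adjusted p = 0.0655). With the replicate number as a block, HOXC6 passed at the same log2 fold change (-0.10, adjusted p = 0.0354). Same-strand genes share 15.7% of the exon bases of HOXC6. HOXC9, a gene of thoracic motor neurons, was at 23.5 CPM and 22.3 CPM (log2 fold change -0.075, adjusted p = 0.305). HOXC11 was at 18.2 and 17.8 CPM (-0.041, adjusted p = 0.636) and HOXC13, the hair follicle gene, at 10.1 and 9.45 CPM (-0.11, adjusted p = 0.304). HOXC5, with 9 to 15 counts, shares 43.4% of its exon bases with other genes on the same strand, HOXC4 and HOXC6 among them, and had a log2 fold change of -0.58 (adjusted p = 0.278).

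By cluster, HOXA had 4 genes higher, 1 lower and 1 that did not pass, HOXB 2 higher, 6 lower and 1, and HOXC 2 higher, 2 lower and 5. Each count rests on 6 or 9 genes and stands beside the 33.2% lower and 31.5% higher of all genes. The median log2 fold changes were 0.58, -0.50 and -0.10. The summed level of HOXA rose from 18.4 ± 0.632 to 26.5 ± 1.07 CPM without overlap between groups. HOXB went from 95.9 ± 1.38 to 88.5 ± 7.20 CPM with overlap, and HOXC from 211.5 ± 0.638 to 231.8 ± 13.4 CPM without. These sums follow the genes with most counts, HOXA9 in HOXA, HOXB4, HOXB2 and HOXB3 in HOXB, and HOXC10, HOXC6 and HOXC8 in HOXC.

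**Figure D4:**
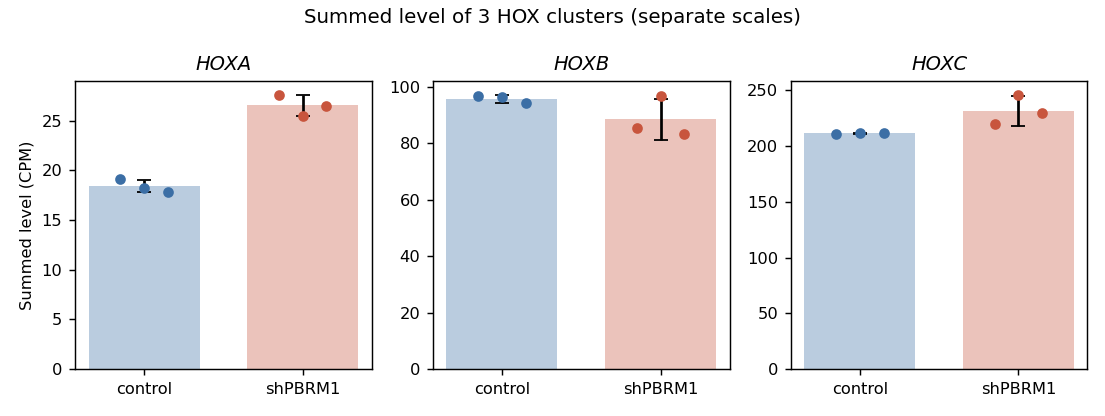
Summed normalized CPM of the HOXA, HOXB and HOXC clusters in each library, with bars for the mean ± SD of 3 libraries per group and a separate scale from 0 for each cluster. The HOXA and HOXC groups do not overlap, and the HOXB groups do.

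Position along the clusters gave no single direction. Genes were divided into anterior (paralogue groups 1 to 3), central (4 to 8) and posterior (9 to 13). Of the 4 tested anterior genes, 2 rose and 1 fell. Of 9 central genes 3 rose and 4 fell, and of 11 posterior genes 3 rose and 4 fell. Of all genes tested, 33.2% were lower and 31.5% higher, and over 2-fold 9.68% and 2.87%. The 4 genes that fell over 2-fold were all posterior, and the 3 that rose over 2-fold were anterior or central. HOXB8, HOXB9 and HOXB13 among them had under 50 counts in every library. None of those that fell passed when tested against a fold of 2 itself. A link between position and direction was not tested. Within clusters, anterior HOXB went from 44.1 to 38.1 CPM, and posterior HOXB went from 1.15 to 0.420 CPM while posterior HOXA went from 17.5 to 23.2 CPM. Paralogues with the same number went the same way in groups 8 (HOXB8 and HOXC8, both higher) and 10 (HOXA10 and HOXC10, both higher). They parted in group 4, where HOXB4 rose and HOXC4 fell, and in group 9, where HOXA9 rose, HOXB9 fell and HOXC9 did not pass.

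Ratios of 2 genes within a library do not depend on how libraries are scaled. They are shown for 3 of the 6 adjacent or paralogous pairs whose members had opposite calls, chosen after their values were seen. The count ratio of HOXA10 to HOXA11 was 1.54, 1.36 and 2.14 in control_shRNA libraries and 5.21, 5.03 and 9.79 in shPBRM1 libraries. HOXB4 to HOXB5 gave 3.08, 4.13 and 3.71 and then 8.20, 8.88 and 7.09. HOXA9 to HOXB9 gave 24.6, 15.5 and 14.8 and then 44.5, 65.3 and 141. A separation of these ratios follows from how the pairs were chosen, so they are a description with no test.

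Of 18 noncoding genes within the clusters, 11 were tested, of which 5 fell, 1 rose and 5 did not pass, beside 33.2% lower and 31.5% higher of all genes. HOXB-AS3 had 60, 90 and 105 counts and then 45, 32 and 55 (log2 fold change -1.19, adjusted p = 3.59e-05). HOXC13-AS had 68, 90 and 72 counts and then 38, 33 and 68 (log2 fold change -0.99, adjusted p = 0.000782), next to HOXC13, which did not pass. HOTAIR, the HOXC noncoding RNA best known from breast cancer, was singled out for that after its values were seen and fell as well (-0.46 on the log2 scale, adjusted p = 0.00107).

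HOX partners and inputs were given by counts from lists of textbook genes. Of the TALE cofactors, 8 of 9 were tested, of which 3 fell and 2 rose. MEIS3 fell from 27.0 to 6.70 CPM (log2 fold change -2.02, adjusted p = 8.9e-17) and PBX4 rose (0.52, adjusted p = 0.0311). Of 15 genes of retinoic acid signalling and CDX, 8 were tested, of which 5 fell and 3 did not pass. ALDH1A3, which makes retinoic acid, fell from 29.1 to 11.5 CPM (-1.34, adjusted p = 3.38e-14), and CYP26B1, which degrades it, fell as well (-0.65, adjusted p = 0.00409). Of 15 genes listed for the trithorax side 3 fell and 6 rose, with KDM6B (-0.61) and KDM6A (-0.56), demethylases that remove the Polycomb mark, among those that fell. This list was broad and also held the chromatin genes CTCF, RAD21, NSD1 and DOT1L. RAD21 (0.39) and DOT1L (0.20) were among those that rose. Of 17 Polycomb genes 5 fell and 6 rose, with RBBP7 at 0.67 among those that rose. These shares stand beside the 33.2% lower and 31.5% higher of all genes.

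Genes that flank the clusters did not move with them in a uniform way. SKAP2, which flanks HOXA, rose with a log2 fold change of 0.81. Beside HOXB, CBX1, an HP1 protein, rose (0.64) and SNX11 fell (-0.32). Beside HOXC, CBX5, another HP1 protein, rose (0.70) and CALCOCO1 fell (-0.66). Beside HOXD, ATP5MC3 rose (0.73) and LNPK fell (-0.45). EVX1 and EVX2, the homeobox genes at the posterior ends of HOXA and HOXD, had 0 counts in every library, as did PRAC1 and PRAC2 near HOXB13.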

How the data were processed

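RNA-seq libraries of BT-549 cells were analysed, 3 per group. The deposited table holds unnormalized read counts by gene symbol (37887 rows, of which 12608 had no count and 14 carried dates for symbols). The submitters' processing notes name CASAVA 1.8.2, STAR 2.7.9a, featureCounts, DESeq2 1.24.0 and GRCh38.p7, without their roles. The annotation and the strand setting are not given in the sources used here. Groups came from sample titles. The 3 control columns carry the cell line and a number but no group name, and were matched by that number because the other columns name shPBRM1. The labels give triplicate cultures without saying how they were started, so p-values measure the spread between these samples.

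Counts were analysed with edgeR 4.0.16 (R 4.3.3, TMM, filterByExpr, quasi-likelihood F-test, Benjamini-Hochberg over 15450 genes), a step tested on simulated data. The simulation changed only genes with more counts than HOXB8, HOXB9 and HOXB13, and by a larger fold, so it does not cover such genes. SEs came from log2 CPM with a prior count of 2. CPM were divided by the union of exons in GENCODE v29, matched by symbol for 39 of 39 members. Intervals and floors cover counting error only. The main fit held the group only, so its p-values and calls are unpaired, and replicate numbers paired the libraries only in the replicate block. Pairing was examined over 5622 genes with a mean log2 CPM above 5. Deviations from the group means correlated at 0.734, 0.593 and 0.419 for libraries with the same number. For different numbers they correlated between -0.671 and 0.464 (0.464 for control replicate 2 with shPBRM1 replicate 3). Members and lists were chosen with earlier results of these data known. Full values were given for members with a fold change over 2 and an adjusted p under 0.05 and for the 10 highest by CPM per kb, and, of each related list, for the 2 largest changes that passed with a mean of at least 50 counts. Some named results are not reported here. Alternatives were DESeq2 1.42.0, other scalings and filters, the replicate block, leaving out each library, glmTreat and longest transcripts.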

Additional observations from a re-analysis of the deposited data

How the results depend on the processing

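The counts of 9 lower and 8 higher HOX genes were the same with DESeq2. They stayed within 1.5 times under every other scaling, filter and fit that was run, apart from glmTreat, which tests against a fold of 2. Leaving out each library in turn gave 7 to 10 lower and 8 to 9 higher, 4 lower over 2-fold in each case and 3 to 4 higher over 2-fold, a median log2 fold change of -0.16 to -0.060, and -1.93 to -1.89 for PBRM1. Over the same refits the log2 ratios of summed CPM were 0.50 to 0.56 for HOXA, -0.18 to -0.074 for HOXB, 0.087 to 0.17 for HOXC, -0.17 to -0.075 for anterior, 0.060 to 0.16 for central and 0.095 to 0.15 for posterior genes. With a mean count minimum of 50, 2 lower and 1 higher gene remained over 2-fold, since genes with fewer counts, such as HOXB8, HOXB9 and HOXB13, were no longer tested. Tested against a fold of 2 with glmTreat, 0 lower and 1 higher passed. With longest transcripts as lengths, 9 of the 10 highest members were shared. By library size only, the log2 ratio of HOXA was 0.48 against 0.53. HOXC11 ranged from -0.10 to 0.020 over the refits and turned to 0.020 (adjusted p = 0.843) without shPBRM1 replicate 1, which is also the library whose removal ended the calls of HOXB7 and HOXC4. HOXC6 passed by library size only (-0.15, adjusted p = 0.00582), at the minimum of 50 counts (-0.11, adjusted p = 0.0375) and without shPBRM1 replicate 2 (-0.14, adjusted p = 0.0147).

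With the replicate block, 10 HOX genes were lower and 8 higher, and PBRM1 was at -1.92. HOXC6 was the only HOX gene whose call changed under the block. Small counts were even more often than odd (62.4% to 63.7% of the values from 1 to 4), so a fit on halved counts was added after seeing the data. It gave 9 lower, 8 higher, 4 lower over 2-fold and 3 higher over 2-fold. Depth limits the silent and trace genes, where differences were not detectable below the floor of 3 counts.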
